A study of Mus musculus with 5 samples.

Results

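CpG-poor stretches of the genome far from promoters that are only partly methylated were examined in leukemic blasts with and without TET2. They were chosen as 1 kb tiles of the autosomes with 5 to 19 CpG dyads (a CpG counted on both strands), more than 3 kb from any transcription start site (TSS) of GENCODE vM21. A tile needed at least 15 calls in every library and a mean methylation level, over the 5 libraries, from 10% to under 50%. The level is the share of methylated calls among all calls of the tile. In all, 70775 tiles met the rule, which was 5.75% of the 1231586 tiles fitted and 8.02% of the 882239 CpG-poor distal tiles of any level. The mean level chose the tiles, so it is given below as a description. The rule used no genotype label, so the difference between genotypes could be tested, although a mean over 5 libraries weights Tet2-/- 3 to 2. With the band set on the mean of the 2 group means, the gain described below was 11.3 points in place of 9.93, and 2955 tiles in place of 2176 were called higher (edgeR). That band holds another set of tiles, so the counts are not shares of the same tiles.

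The study compared acute myeloid leukemia (AML) blasts of C57BL/6 mice (C57BL/6J donors and C57BL/6J.SJL recipients, per the methods of the study) by whole-genome bisulfite sequencing, in which unmethylated cytosine is read as T and methylated cytosine as C. Tet2+/+ blasts, labelled Cebpa-/p30 Tet2+/+, gave 2 libraries (23 and 24), and Tet2-/- blasts, labelled Cebpa-/p30 Tet2-/-, gave 3 (5, 7 and 8). Both groups lacked one Cebpa allele and carried a second allele that makes only p30, the short form of the myeloid transcription factor C/EBPα. As the methods of the study describe, floxed alleles were deleted with Mx1-Cre, which interferon or poly(I:C) switches on in blood-forming and some other cells, after transplantation into irradiated recipients. Blasts were sorted from frozen bone marrow of moribund mice as live donor cells without T, B and erythroid surface markers. A difference in the makeup of the sorted cells and a difference within the same cells cannot be told apart here.

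TET2 is a dioxygenase that oxidises 5-methylcytosine, the first step of removing the methyl group. Bisulfite does not separate 5-methylcytosine from 5-hydroxymethylcytosine, so a call of methylated covers both. Distal CpG-poor regions of low methylation often lie where transcription factors bind, and many are enhancers, the switches that drive cell type specific genes. The files hold no chromatin or binding data, so the tiles are called low-methylated distal tiles and not enhancers.

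To show what such a tile looks like, 200 bases with the most CpGs of a tile are printed from the GRCm38 reference, forward strand, with each CG in capitals. The tiles nearest Cd28, Arid5b and Slc23a2 are among the largest gains in Tet2-/-. Their Tet2+/+ means lay under 10%, so only the Tet2-/- libraries brought them into the band. The tile nearest Stpg2 is the largest loss. That nearest Zeb2, a stem cell regulator, is a called tile far from its nearest gene, and that nearest Gata2 did not differ detectably.
Cd28, chr1:60668343-60668542: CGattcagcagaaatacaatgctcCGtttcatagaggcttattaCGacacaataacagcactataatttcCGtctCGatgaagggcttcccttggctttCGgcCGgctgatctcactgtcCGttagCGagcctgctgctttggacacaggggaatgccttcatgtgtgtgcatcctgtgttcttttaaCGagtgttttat
Arid5b, chr10:68146282-68146481: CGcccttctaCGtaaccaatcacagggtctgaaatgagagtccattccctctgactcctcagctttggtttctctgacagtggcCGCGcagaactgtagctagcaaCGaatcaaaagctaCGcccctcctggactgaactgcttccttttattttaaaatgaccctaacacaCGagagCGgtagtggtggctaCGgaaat
Slc23a2, chr2:132149728-132149927: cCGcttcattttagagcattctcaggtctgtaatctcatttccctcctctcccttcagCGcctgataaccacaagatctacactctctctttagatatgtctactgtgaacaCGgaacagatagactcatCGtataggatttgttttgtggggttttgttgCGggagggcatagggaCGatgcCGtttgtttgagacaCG
Stpg2, chr3:139875676-139875875: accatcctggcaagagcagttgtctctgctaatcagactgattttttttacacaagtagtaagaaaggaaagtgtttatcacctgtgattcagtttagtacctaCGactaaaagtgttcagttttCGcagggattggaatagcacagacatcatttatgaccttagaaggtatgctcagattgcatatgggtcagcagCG
Zeb2, chr2:45725389-45725588: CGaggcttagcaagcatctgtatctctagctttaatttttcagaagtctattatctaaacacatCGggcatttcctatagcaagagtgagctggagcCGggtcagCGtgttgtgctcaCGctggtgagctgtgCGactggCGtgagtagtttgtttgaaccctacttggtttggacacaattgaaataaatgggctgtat
Gata2, chr6:88166135-88166334: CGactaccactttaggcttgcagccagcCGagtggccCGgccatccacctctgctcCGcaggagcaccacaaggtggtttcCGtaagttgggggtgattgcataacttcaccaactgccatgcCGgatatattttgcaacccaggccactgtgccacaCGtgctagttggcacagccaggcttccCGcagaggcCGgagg

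The libraries held 3.76 and 3.55 calls per autosomal CpG dyad in Tet2+/+ and 5.17, 5.27 and 3 in Tet2-/-, and a low-methylated distal tile had a median of 32 to 52 calls per library. As a check of the labels, depth over the last exon of Tet2 (chr3:133463679-133468190), relative to each library's mean, was 0.896 and 1.13 in Tet2+/+ and 0.433, 0.312 and 0.373 in Tet2-/-. Over the longest other exon it was between 1.21 and 1.35 in all 5 libraries. Tests were two-sided throughout. Only 10 assignments exist for groups of 2 and 3, so the exact permutation p is never below 0.1 and no class mean could pass 0.05.

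Low-methylated distal tiles were more methylated in Tet2-/- blasts. Their mean level was 33.6% in Tet2+/+ library 23 and 29.4% in library 24, while Tet2-/- libraries 5, 7 and 8 averaged 40%, 47.0% and 37.3%. All 3 Tet2-/- libraries lay above both Tet2+/+ libraries, and library 7 stood highest. The Tet2+/+ mean was 31.5% ± 2.99 (SD, n = 2). The Tet2-/- mean was 41.4% ± 5.05 (SD, n = 3), which is a gain of 9.93 percentage points (exact permutation p = 0.2), or 31.6% of the Tet2+/+ level. The gain was 7.13 points without library 7 and 12 points without library 23.

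The spread of single tiles shifted with the mean. The median tile stood at 34.0% and 29.2% in Tet2+/+ libraries 23 and 24 and at 41.0%, 47.8% and 37.5% in Tet2-/- libraries 5, 7 and 8. Although the mean of the 5 libraries was under 50% by the rule, 14.4% and 7.34% of the tiles reached 50% in the Tet2+/+ libraries. In the Tet2-/- libraries 27.7%, 46.0% and 21.6% did. Levels under 10% were found in 5.40% and 7.33% of the tiles in Tet2+/+ and in 2.19%, 0.814% and 3.05% in Tet2-/-. Tiles also varied between libraries of the same genotype. Sampling of calls, with a median of 32 to 52 per tile and library, adds to this variation, and its part was not tested. The mean absolute difference per tile was 11.9 points between the Tet2+/+ libraries and 12.3 to 15.4 points between pairs of Tet2-/- libraries, against 12.7 to 20.7 points between genotypes.

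**Figure D1:**
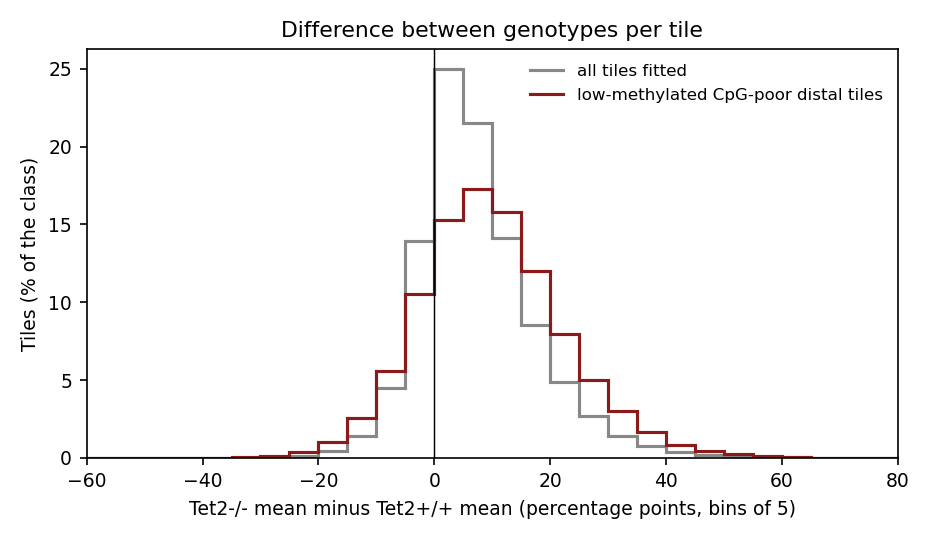
Distribution of the difference between genotypes per tile (x axis, Tet2-/- mean minus Tet2+/+ mean in percentage points, bins of 5) as a percentage of the tiles of each class (y axis), for the 70775 low-methylated distal tiles and all 1231586 tiles fitted. Both distributions lie mostly right of 0, with a median of 9.13 points for the low-methylated distal tiles and 5.93 points for all tiles.

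Single tiles were then tested by fitting their methylated and unmethylated calls in edgeR (quasi-likelihood), with Benjamini-Hochberg adjustment over all tiles fitted. Of the 70775 tiles, 2176 (3.07%) were called higher in Tet2-/- at an adjusted p under 0.05, against 1.85% of all tiles fitted. Only 10 (0.0141%) were called lower, against 0.00861% of all tiles. At an unadjusted p under 0.05 there were 12637, and 188123 among all 1231586 tiles. The median difference was 9.13 points (quartiles 1.67 and 17.4), and 79.7% of the tiles had a positive difference, near the 79.5% of all tiles. A gain of 20 points or more was found in 13591 tiles (19.2%, against 10.4% of all tiles) and a loss of that size in 446 (0.63%, against 0.222%). Shares above those of all tiles were also found elsewhere. Of CpG-poor distal tiles at 50% to under 80%, 2.26% were called higher and 17.2% gained 20 points or more. Of CpG-poor tiles at 10% to under 50% within 3 kb of a TSS, 4.03% and 19.8% did. Of tiles at that level with at least 50 dyads, 6.16% and 9.46% did. Low-methylated distal tiles called higher had a median gain of 39.6 points. The smallest difference among those called was 13.2 points at levels from 10% to under 20% and 32.3 points from 40% to under 50%. Without library 24 the number called higher was 195, without library 23 it was 920 and without library 7 it was 1146, so the number of calls depended on single libraries. Without library 23 or 24 the Tet2+/+ group is 1 library, which is assumed to vary like the Tet2-/- libraries, and the part of the smaller design in these drops was not tested. For the fits with a library left out, the share called among all tiles fitted is not given. In limma with each library centred on its median tile, 302 were called higher (0.427%, against 0.206% of all tiles) and 24 lower, and 43.5% of the tiles lay above 0. This fit gives changes relative to the median of all tiles, which was higher in Tet2-/- by 0.57 on the log2 odds scale. The calls of every library were also thinned to those of the tile's shallowest library. Then edgeR and limma called 0 tiles in either direction, also among all tiles fitted. Of the 70775 tiles, 9833 had an unadjusted p under 0.05 (edgeR), and the number among all tiles was not counted.

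The order of the libraries alone set the tiles apart less. All 3 Tet2-/- libraries exceeded both Tet2+/+ libraries in 22762 tiles (32.2%), against 31.5% of all tiles fitted. All 3 lay below both in 1796 tiles (2.54%), against 2.22% of all tiles. Both shares were near those of all tiles.

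The size of the gain in points followed the level of the tile. The bands are cut on the same mean, which limits the gain in points at low levels. On the log2 odds scale, from pooled calls, the gain was 0.577, 0.668, 0.71 and 0.715 from the lowest to the highest band. From 10% to under 20%, with 6114 tiles, the gain was 5.03 points (exact permutation p = 0.2). It was 8.20 points in the 10102 tiles from 20% to under 30% (p = 0.1, exact), 10.3 points in the 18615 tiles from 30% to under 40% (p = 0.2, exact), and 11.1 points in the 35944 tiles from 40% to under 50% (p = 0.2, exact). In the lowest band the Tet2+/+ libraries stood at 12.3% and 12.4% and the Tet2-/- libraries at 15.5%, 21.6% and 15.1%. In the highest band they stood at 41.9% and 35.9% and at 48.9%, 55.9% and 45.2%. Relative to the Tet2+/+ level, the gain ran the other way, from 40.6% in the lowest band to 28.5% in the highest. The numbers called higher were 109, 301, 653 and 1113 from the lowest to the highest band, or 1.78%, 2.98%, 3.51% and 3.10% of the tiles, against 1.85% of all tiles fitted.

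**Figure D2:**
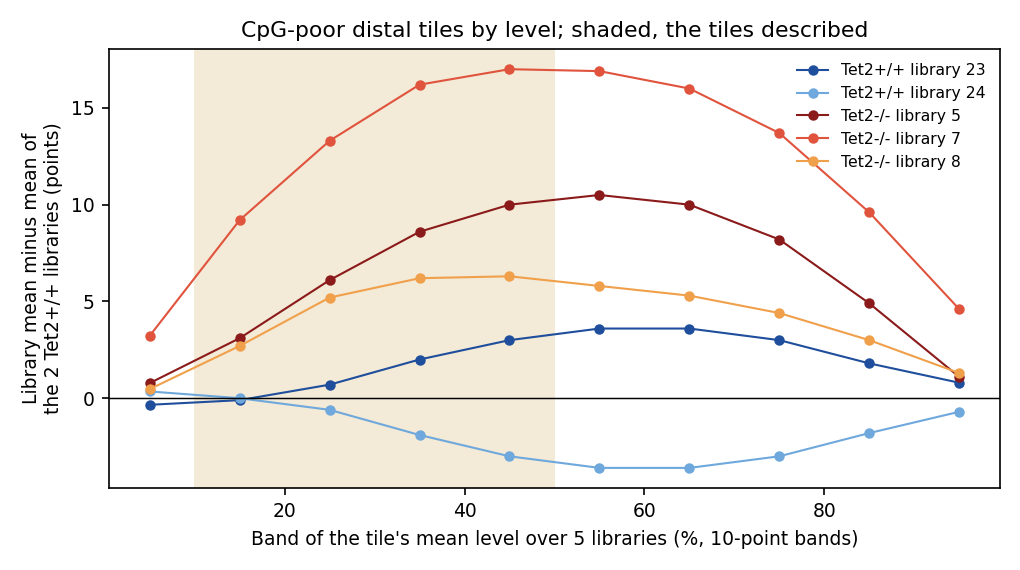
Mean level of each library minus the mean of the 2 Tet2+/+ libraries (y axis, percentage points) in CpG-poor distal tiles, by 10-point band of the tile's mean level over 5 libraries (x axis, %). Points are libraries, and the shaded bands hold the low-methylated distal tiles. Gains were between 5.03 and 11.1 points in the shaded bands, 11.1 points from 50% to under 60% and 2.30 points from 90% upwards.

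To ask whether the gain was larger than elsewhere in the genome, the difference of gains was computed per library and tested over the libraries. Low-methylated distal tiles gained 2.52 points more than all tiles fitted, which gained 7.42 points (exact permutation p = 0.1, the smallest possible), but in the band from 10% to under 30% the difference was -0.412 points. They gained 5.38 points more than the 400486 CpG-poor distal tiles at 80% or more (p = 0.1, exact) and 8.45 points more than the 3633 such tiles under 10% (p = 0.1, exact). These classes are cut on the mean level, which limits how far a tile can move. Of the tiles under 10%, 0 gained 20 points or more, so these differences in points are set in part by the rule. The difference was 0.220 points from the 407345 CpG-poor distal tiles at 50% to under 80%, which gained 9.72 points (p = 0.8, exact). It was -0.461 points from 24899 CpG-poor tiles of the same level within 3 kb of a TSS (p = 0.8, exact), and 1.72 points from 3119 tiles of that level with at least 50 dyads (p = 0.9, exact).

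On the log2 scale of the odds of methylation, from pooled calls, low-methylated distal tiles were higher by 0.66 in Tet2-/-. CpG-poor distal tiles were higher by 0.70 at 50% to under 80% and by 0.67 at 80% or more. The differences from these 2 classes were -0.05 (p = 0.5, exact) and -0.01 (p = 1.0, exact). The larger gain in points than in highly methylated tiles was thus not seen in odds. The difference from all tiles fitted was 0.21 (p = 0.1, exact, the smallest possible) and that from CpG-poor distal tiles under 10% was 0.27 (p = 0.2, exact). Per tile the order was the reverse, with a median fitted difference in limma of 0.54 in low-methylated distal tiles and 0.57 in all tiles. After each library was centred it was -0.11 in the former. These values differ from the first in pooling, in the use of medians and in the fit, and the parts of these were not tested.

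Low-methylated distal tiles were local dips in a methylated surrounding. Flanks at 2 to 5 kb on both sides were methylated at 66.5% and 61.3% in Tet2+/+ and at 71.0%, 76.1% and 68.4% in Tet2-/-. Of the 70774 tiles with calls in their flanks, 68281 (96.5%) lay below their flanks and 53240 (75.2%) lay at least 20 points below, against 40% and 9.29% of all CpG-poor distal tiles. This contrast reflects the rule in part, since the tiles were chosen for a low level. In 5970 tiles (8.44%) the flanks were themselves under 50%.

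The flanks were higher in Tet2-/- by 7.91 points (exact permutation p = 0.2). The tiles gained 2.02 points more than their flanks (p = 0.1, exact, the smallest possible). The level of the tile minus that of its flanks was -32.4 points (SD 0.667, n = 2) in Tet2+/+ and -30.4 points (SD 1.12, n = 3) in Tet2-/-. The gain beyond the flanks differed in sign between levels. The bands are cut on the tile's own level, which limits its gain in points, while the flanks are not bounded. Flanks gained 7.82 points in the lowest band and 7.81 in the highest, so the change of sign follows the tile's gain and reflects the rule in part. From 40% to under 50% the tiles gained 3.27 points more than their flanks (p = 0.1, exact), from 20% to under 30% 0.0716 points more (p = 0.9, exact), and from 10% to under 20% the difference was -2.79 points (p = 0.1, exact). In that lowest band the tiles minus their flanks stood at -52.8 points in Tet2+/+ and -55.6 in Tet2-/-. CpG-poor distal tiles at 50% to under 80% gained 1.98 points more than their flanks (p = 0.1, exact), so a gain beyond the flanks was not particular to low-methylated tiles.

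**Figure D3:**
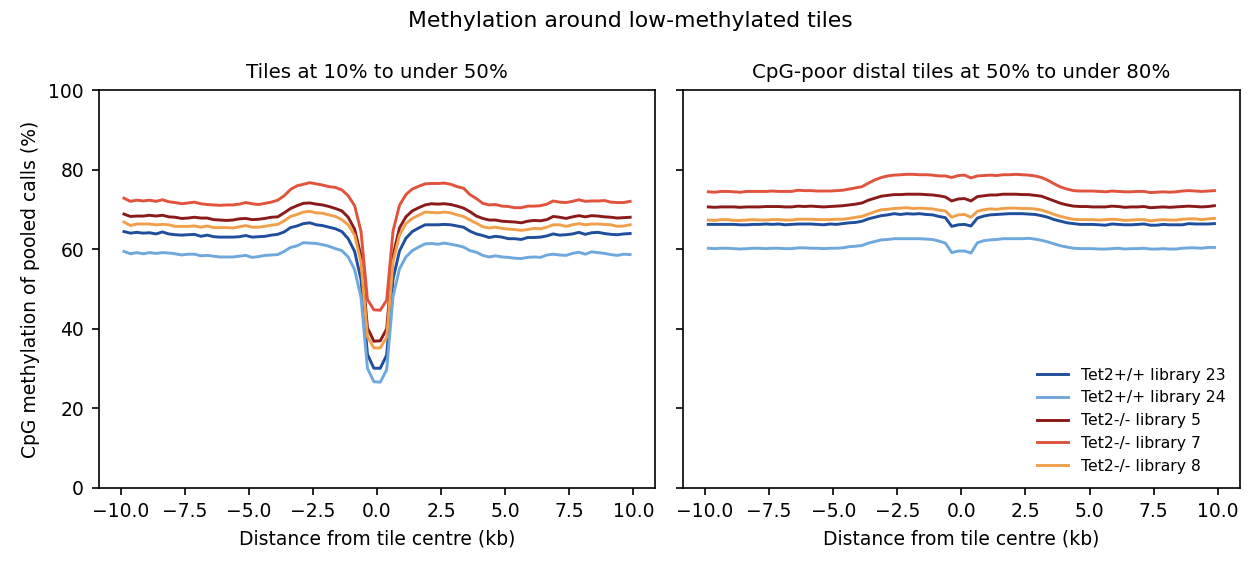
CpG methylation of pooled calls (y axis, %) in 250-base bins by distance from the tile centre (x axis, kb), for each library, around low-methylated distal tiles (left) and CpG-poor distal tiles at 50% to under 80% (right). In the bin just right of the centre the low-methylated tiles stood at 30.1% and 26.6% in Tet2+/+ and at 37.0%, 44.7% and 35.2% in Tet2-/-. The rule keeps promoters out of the inner 3 kb.

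Most low-methylated distal tiles stood alone. Of 63475 runs of adjacent tiles, 57208 held a single tile, with 80.8% of all tiles, and 2 runs reached 7 tiles. One run of 7 (chr11:59296001-59303000) began 4.43 kb from Wnt3a, a secreted Wnt ligand. Its mean level was 23.6% and 20.9% in Tet2+/+ and 40.3%, 50.2% and 38.8% in Tet2-/-. The groups did not overlap in this run, yet none of its 7 tiles was called. The other run of 7 (chr14:70063001-70070000), 7.70 kb from Egr3, a zinc-finger factor induced by antigen receptor signals, stood at 19% and 17.8% in Tet2+/+ and at 23.5%, 48.6% and 26.9% in Tet2-/-, where library 7 was far above the other two, and 1 tile of this run was called higher. A run of 6 tiles 240 kb from Hivep2 (chr10:14207001-14213000) stood at 30.1% and 27.9% in Tet2+/+ and at 34.7%, 50.2% and 35.5% in Tet2-/-, again with library 7 highest and no tile called.

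By location, 54.4% of the low-methylated distal tiles were intergenic, 39.0% intronic and 6.66% overlapped an exon, against 47.3%, 42.5% and 10.2% of all CpG-poor distal tiles. These shares were not particular to them, since CpG-poor distal tiles at 50% to under 80% had 54.4%, 38.9% and 6.69%. The gain was 9.86 points in the 38473 intergenic, 9.74 points in the 27590 intronic and 11.7 points in the 4712 exonic tiles. It was 10.7 points in the 24062 tiles whose nearest protein-coding TSS lay within 20 kb and 8.23 points in the 21636 tiles beyond 100 kb. Tiles with 15 to 19 dyads gained 12.2 points from 26.8%, and tiles with 5 to 9 dyads 8.90 points from 33.6%. Of the denser tiles 7.72% were called higher and of the sparser 1.28%. Called tiles had a median of 65.6 calls per library and tiles not called 41.4, so depth moved with the calls, and its part in them was not tested. The differences between these strata were not tested either. Every autosome showed a gain, from 9.35 points on chromosome 12 to 10.7 on chromosome 19.

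Short sequence motifs of blood transcription factors were searched on both strands of the tiles. The letters were TTGCNNAA for C/EBP and GAGGAAGT for PU.1, the ETS factor of myeloid and B cells. The RUNX factors of blood stem cells were searched with the letters TGTGGT and the dimers of AP-1, which respond to growth signals, with TGANTCA. For the GATA family of zinc-finger factors the letters searched were AGATAA. The CTCF core was searched by its published consensus. The motifs were searched independently, and matches may overlap. A match is a description of the letters and not of binding. PU.1 matches were found in 11.8% of low-methylated distal tiles and in 6.54% of all CpG-poor distal tiles. CTCF matches, the motif of the factor that anchors chromatin loops, were found in 2.57% and 0.653%. The share was 39.9% against 36.7% for C/EBP, 59.8% against 55.5% for RUNX, 29.9% against 27.8% for AP-1 and 47.4% against 46.9% for GATA. CpG-poor distal tiles at 50% to under 80% had 38.4% for C/EBP, 55.1% for RUNX, 28.4% for AP-1 and 47.7% for GATA. Their shares were 7.18% for PU.1 and 0.605% for CTCF. Along the level, PU.1 matches were found in 16.7% of the tiles at 10% to under 20% and in 10.0% of those at 40% to under 50%, and CTCF matches in 4.04% and 1.80%.

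**Figure D4:**
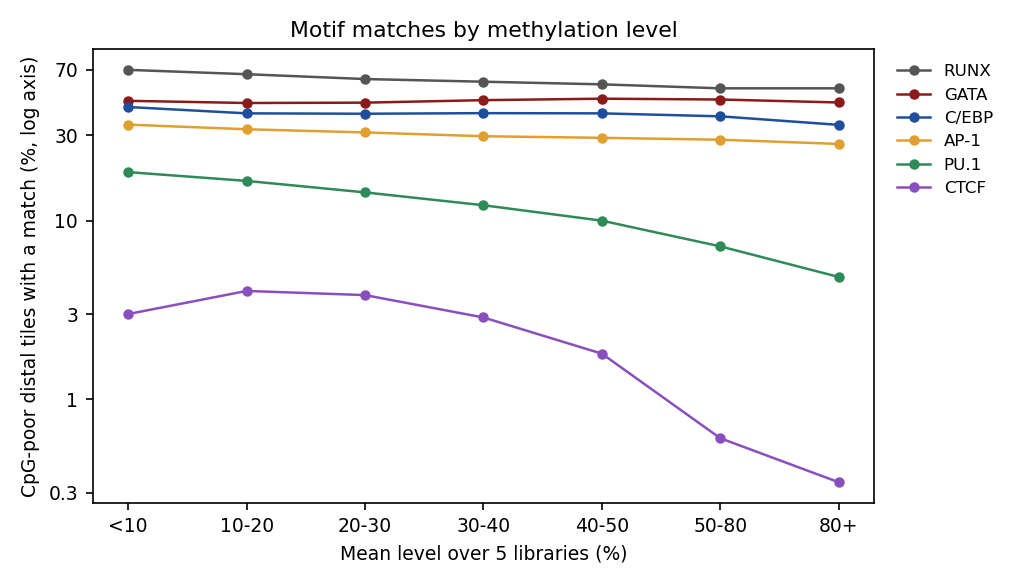
Share of CpG-poor distal tiles with at least 1 motif match (y axis, %, log axis) by mean methylation level over 5 libraries (x axis, %). The bands from 10 to 50 hold the low-methylated distal tiles. The PU.1 share is highest under 10%, at 18.7%, and the CTCF share from 10% to under 20%, at 4.04%, and both are lowest at 80% or more, at 4.84% and 0.343%.

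No difference in gain between tiles with and without a motif was detected. With 5 libraries the exact permutation p is never below 0.1, so this test could not have called one. The 8357 tiles with a PU.1 match stood at 30.5% and 27.9% in Tet2+/+ and at 38.2%, 45.6% and 35.5% in Tet2-/-, a gain of 10.6 points against 9.85 points without a match. The difference of 0.732 points had an exact permutation p of 0.4 (0.75 adjusted over 6 motifs). The difference was 0.245 points for C/EBP (p = 0.5, exact), -0.582 for GATA (p = 0.3, exact), 0.192 for RUNX (p = 0.7, exact), -0.389 for AP-1 (p = 0.4, exact) and 0.199 for CTCF (p = 1.0, exact). After adjustment these p were between 0.75 and 1. Of the 8357 tiles with a PU.1 match 3.66% were called higher, and of those without 3%.

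The largest gains started at low Tet2+/+ levels, which the rule fixes, since a mean under 50% leaves room for a large gain only where Tet2+/+ is low. In the 8 named here the Tet2+/+ mean was 3.14% to 8.42%, so they passed the 10% bound only through the Tet2-/- libraries. The tile nearest Cd28, a costimulatory receptor of T cells (chr1:60668001-60669000, intergenic, 48.3 kb from the TSS), stood at 1.12% and 7.07% in Tet2+/+ libraries 23 and 24. It stood at 60%, 91.6% and 87.0% in Tet2-/- libraries 5, 7 and 8, on 46 to 100 calls per library, a gain of 75.4 points (edgeR adjusted p = 1.85e-07). The tile was thus nearly unmethylated in both Tet2+/+ libraries and mostly methylated in all Tet2-/- libraries. In the 200 bases printed above, none of its 10 CpGs had more than 1 methylated call in Tet2+/+, on 5 to 14 calls each. Exons and introns here are those of any annotated gene, not only of the nearest one. A tile over an exon, nearest Sesn1, a stress-induced sestrin (chr10:41923001-41924000, 25.1 kb from the TSS), stood at 4.17% and 2.17% in Tet2+/+ and at 67.7%, 91.3% and 71.9% in Tet2-/- (edgeR adjusted p = 9.01e-08). A tile over an exon, nearest Ntan1, an enzyme of the N-end rule pathway (chr16:13808001-13809000, 10.3 kb from the TSS), stood at 8.93% and 0% against 61.0%, 88.9% and 83.9% (edgeR adjusted p = 7.69e-06). Both changed in the same way as the Cd28 tile. Their flanks were highly methylated in both genotypes, at 89.0% and 91.3% near Sesn1 and at 90.3% and 92.0% near Ntan1. The flanks of the Cd28 tile differed more, at 64.7% in Tet2+/+ and 90.2% in Tet2-/-.

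An intronic tile nearest Arvcf, a catenin of the armadillo family (chr16:18386001-18387000), stood at 6.67% and 4.35% in Tet2+/+ and at 68.1%, 81.2% and 82.6% in Tet2-/- (edgeR adjusted p = 3.46e-05). The intronic Arid5b tile (chr10:68146001-68147000), 9.88 kb from the TSS of this DNA-binding protein with an ARID domain, stood at 7.62% and 5.43% against 65.1%, 90.5% and 73.3% (edgeR adjusted p = 6.82e-07). In both tiles every Tet2-/- library lay far above Tet2+/+. A tile 4.39 kb from the TSS of Slc23a2, a transporter of ascorbate (chr2:132149001-132150000), stood at 0% and 7.02% against 70.2%, 79.1% and 67.5% (edgeR adjusted p = 3.65e-06). Unlike the others, it lay in flanks of low methylation, with means of 20.2% in Tet2+/+ and 21.1% in Tet2-/-. The same held for a tile nearest Ppara, the nuclear receptor of fatty acid oxidation (chr15:85667001-85668000), with flanks at 13.6% and 17.4%. The tile overlaps an annotated exon and lies 67.5 kb from the Ppara TSS. That tile stood at 12.6% and 4.23% in Tet2+/+ and at 86.4%, 55.6% and 88.8% in Tet2-/- (edgeR adjusted p = 4.00e-06), so here library 7 was the lowest of the 3. A tile over an exon, nearest Nolc1, a nucleolar phosphoprotein (chr19:46083001-46084000, 7.45 kb from the TSS), stood at 3.75% and 2.53% against 39.0%, 92.7% and 82.6% (edgeR adjusted p = 2.88e-06).

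Losses were few, and all 10 are accounted for. The largest lay 670 kb from Stpg2, a sperm-tail protein (chr3:139875001-139876000, 5 dyads). It stood at 74.4% and 86.5% in Tet2+/+ and at 19.2%, 3.33% and 3.57% in Tet2-/- (edgeR adjusted p = 4.23e-05). Of its 3 CpGs printed above, 2 had no methylated call in Tet2-/-, on 26 and 33 calls. Like Tet2, this tile lies on chromosome 3, and 2 of the 10 tiles called lower lay within 10 Mb of Tet2, where 477 of the 70775 tiles lie and 28 were called higher. The part of linked sequence differences in these losses was not tested. Tiles nearest Zpld1 (chr16:53972001-53973000) and Cdh2, the gene of N-cadherin (chr18:17624001-17625000), 1310 kb and 815 kb from the TSS, stood at 68.2% and 90.9% against 3.45%, 36.4% and 16.0%, and at 61.5% and 64.7% against 20%, 20% and 0%. The remaining 7 were nearest Fut8, Fam19a5, Kif2a, Fabp12, 1110002E22Rik, Themis2 and Gm10295, with differences between -46.5 and -32.7 points and adjusted p of 0.023 to 0.0477 (edgeR). When each library was left out in turn, the Stpg2 tile kept an adjusted p of at most 0.0124 (edgeR). The tiles nearest Zpld1, Cdh2, Fut8 and Fam19a5 lost the call without library 24, with adjusted p of 0.364, 0.402, 0.822 and 0.198 (edgeR). The last 3 also lost it without library 8, at 0.08, 0.0557 and 0.0875, and each without at least 1 other library.

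Tiles were next grouped by their nearest protein-coding gene, which says nothing on which gene a tile may act on. The lists were chosen with earlier results of these data known and are described by counts and medians. Among all 70775 tiles, 3.07% were called higher and the median difference was 9.13 points. Near 21 genes of myeloid differentiation lay 175 tiles, of which 1 (0.571%) was called higher, with a median difference of 10.0 points. Their mean level was 30.7% and 27.3% in Tet2+/+ and 36.1%, 45.5% and 35.0% in Tet2-/-. None of the 8 tiles nearest Cebpa, the gene both groups carry in mutant form, was called, and their median difference was -3.03 points. Tiles nearest Irf8, a driver of monocytes and dendritic cells, had a median of 13.9 points (20 tiles), those nearest Csf3r, the G-CSF receptor, 10.7 points (19 tiles), and those nearest Spi1, the gene of PU.1, 8.64 points (4 tiles). Besides Cebpa, medians were negative for Csf1r, the M-CSF receptor, at -0.574 points (3 tiles), for Ly6c1 at -4.04 (1 tile) and for Fcgr3 at -0.379 (1 tile). Of the list's tiles 77.7% were positive, against 79.7% of all low-methylated distal tiles. The called tile lay 319 kb from Klf4, a factor of monocyte differentiation (chr4:55851001-55852000). It stood at 36.0% and 2.78% in Tet2+/+ and at 62.9%, 69.2% and 75.0% in Tet2-/- (edgeR adjusted p = 0.0191), with library 23 far above library 24. Without library 24 its adjusted p was 0.817 (edgeR).

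Near the 9 neutrophil granule genes with a tile lay 16 tiles and near 7 erythroid genes 25, with medians of 11.9 and 9.92 points and no call. The granule tile with most calls, nearest Mmp9, a gelatinase of neutrophil granules, stood at 36.7% and 39.0% against 44.8%, 68.8% and 60.5% (edgeR adjusted p = 0.306). The groups did not overlap, but the test did not call it. The tiles of 4 granule genes had negative differences, with medians of -2.06 points for Camp, -1.43 for Chil3, -3.86 for Ctsg and -6.31 for Ltf, and 68.8% of the list's tiles were positive against 79.7% of all low-methylated distal tiles. The erythroid tile with most calls, nearest Ank1, an anchor protein of the red cell membrane, stood at 11.9% and 1.03% against 7.69%, 19.9% and 21.6%, and its groups overlapped.

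Stem cell and leukemia regulators had the most tiles of the lists, 366 near 21 genes, of which 5 (1.37%) were called higher, with a median of 8.29 points. Of these 5, 3 were nearest Zeb2, a repressor that blood stem cells need, 1 nearest Hlf, a stem cell factor, and 1 nearest Mn1, a coactivator found in leukemia fusions. The Zeb2 tile at chr2:45757001-45758000 stood at 0% in both Tet2+/+ libraries, so only the Tet2-/- libraries brought it into the band. The Hlf tile, in an intron, stood at 37.3% and 14.3% in Tet2+/+ and at 64.3%, 62.5% and 64.5% in Tet2-/- (edgeR adjusted p = 0.043), and the Mn1 tile at 22.7% and 18.8% against 49.1%, 69.7% and 60% (edgeR adjusted p = 0.0156). In the Hlf tile the 3 Tet2-/- libraries were close together and the Tet2+/+ libraries were not. The Zeb2 tile printed above (chr2:45725001-45726000, 608 kb away) stood at 15.9% and 13.0% in Tet2+/+ and at 61.4%, 86.3% and 50.7% in Tet2-/- (edgeR adjusted p = 0.00115), with an adjusted p of 0.127 without library 24 (edgeR). The 45 tiles nearest Runx1 and the 25 nearest Meis1 had no call, with medians of 5.81 and 4.63 points. Only 2 tiles were nearest Gata2, which codes for a factor of stem cells and mast cells. The deeper one (chr6:88166001-88167000), 27.4 kb from the TSS with C/EBP, PU.1 and RUNX matches, stood at 20.5% and 20.6% in Tet2+/+ and at 23.3%, 19.2% and 19.4% in Tet2-/-, on 107 to 180 calls. All libraries thus lay close together (edgeR adjusted p = 0.998). In the 200 bases printed above each of its 9 CpGs had at most 1 methylated call in either group. The other (chr6:88162001-88163000) stood at 41.5% and 52.6% against 50.7%, 59.6% and 40% (edgeR adjusted p = 0.877), with overlapping groups.

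Of 43 tiles near mast cell and basophil genes, 1 (2.33%) was called higher, against 3.07% of all low-methylated distal tiles, with a list median of 7.53 points. It overlaps an exon 5.14 kb from the TSS of Ms4a2, the β chain of the IgE receptor (chr19:11618001-11619000), and stood at 6.67% and 14% against 66.2%, 80.4% and 63.9% (edgeR adjusted p = 0.000255). Its call held without any single library, with adjusted p of at most 0.0251 (edgeR).

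Lymphoid genes are not those of the sorted lineage. Of 96 tiles near B cell genes 2 (2.08%) were called higher, with the highest list median of 12.4 points, and of 120 tiles near T and NK cell genes 3 (2.50%), with a median of 9.75 points. The B cell tiles stood at 31.1% and 26.6% in Tet2+/+ and at 40%, 48.9% and 38.0% in Tet2-/-. Over all 1781 tiles fitted nearest the B cell genes, of any level, the median was also the highest of the lists. It was 9.09 points, against 5.93 points for all tiles fitted. The called tiles were nearest Bcl11a, a zinc-finger factor of early B cells, Blnk, an adaptor of the B cell receptor, Bcl11b, a factor of T cell commitment, Il7r, the IL-7 receptor, and Cd28. The Bcl11a tile (chr11:24297001-24298000), 155 kb away, stood at 36.2% and 6.58% in Tet2+/+ and at 74.5%, 47.2% and 70% in Tet2-/- (edgeR adjusted p = 0.0119). The intronic Blnk tile (chr19:40970001-40971000) stood at 13.6% and 6.98% against 39.7%, 76.5% and 30.3% (edgeR adjusted p = 0.0193). In the first the Tet2+/+ libraries lay far apart, in the second library 7 was far above the other Tet2-/- libraries. The Il7r tile, over an exon 21.3 kb from the TSS (chr15:9508001-9509000), stood at 7.45% and 4.76% against 21.3%, 87.5% and 57% (edgeR adjusted p = 0.000857). Its Tet2-/- libraries thus differed widely among themselves. The Tet2+/+ mean of this tile was 6.1%, so only the Tet2-/- libraries brought it into the band. The intronic Bcl11b tile (chr12:107939001-107940000) stood at 25.5% and 16.7% against 51.5%, 92.9% and 43.5% (edgeR adjusted p = 0.0391).

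Of 173 tiles near signalling genes of blood cells 5 (2.89%) were called higher, with a median of 8.63 points. Of these, 3 were nearest Nfatc2, a calcium-activated transcription factor, between 95.8 and 114 kb from its TSS. They stood at 20.4% and 21.0% against 56.9%, 87.3% and 56.2%, at 13.2% and 13.8% against 43.5%, 81.5% and 57.1%, and at 23.9% and 14.9% against 60%, 67.3% and 52.4%. The other two were nearest Dusp6, a phosphatase of ERK, and Arhgef3. The Arhgef3 tile (chr14:27182001-27183000) stood at 15.3% in both Tet2+/+ libraries and at 37.5%, 70.3% and 44.6% in Tet2-/- (edgeR adjusted p = 0.0206). The Dusp6 tile (chr10:99384001-99385000), 119 kb away in an intron, stood at 24.1% and 16.7% against 55.1%, 71.3% and 77.8% (edgeR adjusted p = 0.00338), and at 0.311 without library 24 it was no longer called (edgeR). As a comparison, 116 tiles near genes of tissues other than blood had 2 calls (1.72%) and a median of 9.36 points, nearest Col2a1, a cartilage collagen, and Krt14, a keratin of skin. Over the lists, medians lay between 7.53 and 12.4 points. Of the 19 tiles called in the lists, 2 kept the call whichever library was left out, those nearest Cd28 and Ms4a2, and 17 lost it without library 24 (edgeR), which leaves 1 Tet2+/+ library.

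**Figure D5:**
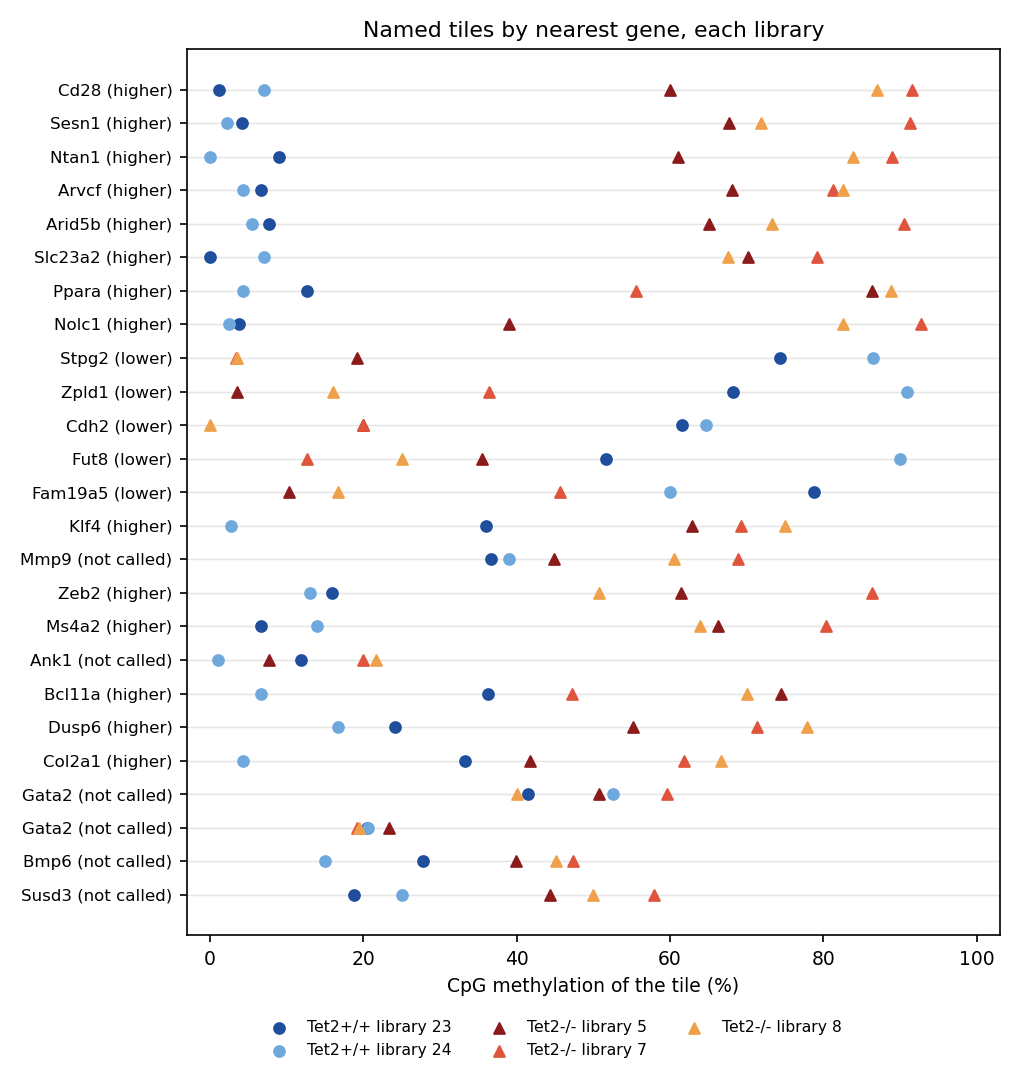
Methylation level (x axis, %) of named tiles in each library, labelled by nearest gene and by the edgeR call (y axis). The tiles are those named by the rule given with the processing. Runs, tiles at the bounds and tiles named after their values were seen are not shown. Circles are the 2 Tet2+/+ libraries and triangles the 3 Tet2-/- libraries. Tiles called higher have their circles at the left and triangles at the right, tiles called lower the reverse, and both Gata2 tiles have them mixed.

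Tiles with many calls could also stay uncalled. A tile 48.6 kb from Bmp6, a ligand of the BMP family, stood at 27.8% and 15% in Tet2+/+ and at 39.9%, 47.3% and 45.1% in Tet2-/- (edgeR adjusted p = 0.169). A tile 11.8 kb from Susd3 stood at 18.8% and 25% against 44.4%, 57.9% and 50% (edgeR adjusted p = 0.0836). In both the groups did not overlap. The gains of 22.6 and 28.9 points had unadjusted p of 0.0109 and 0.00253 (edgeR), and neither passed after adjustment over all tiles fitted.

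The genes with most called tiles were singled out after their values were seen, and no clustering of calls by gene was tested. The 2176 tiles called higher were nearest 1719 genes. The highest counts were those of Efna5, an ephrin ligand, with 6 of its 45 tiles, and Slc28a3, a nucleoside transporter, with 6 of 19. By comparison, 3.07% of all low-methylated distal tiles and 1.85% of all tiles fitted were called higher.

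At the bounds of the rule, the means over 5 libraries were alike on either side because the rule sets them. For the single tile kept and left out, genotype differences were 10.9 and 0.736 points at the lower bound and 12.6 and 3.47 at the upper. None of these tiles was called (edgeR adjusted p of 0.311, 0.967, 0.637 and 0.961). As classes, CpG-poor distal tiles gained 11.1 points both at 40% to under 50% and at 50% to under 60%. They gained 5.03 points at 10% to under 20% and 1.48 points under 10%. The tile with the lowest mean kept, nearest Cartpt, stood at 5% and 1.89% in Tet2+/+ and at 3.45%, 13.2% and 26.5% in Tet2-/-, and the nearest one left out, nearest Nabp1, at 11.1% and 8% and at 11.1%, 13.5% and 6.25%. At the upper bound, the last tile kept, nearest Defb41, stood at 46.2% and 38.7% and at 67.4%, 57.7% and 40%, and the first left out, nearest Cpa6, at 62.5% and 33.3% and at 56.7%, 62.5% and 35.0%.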

How the data were processed

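Whole-genome bisulfite libraries of sorted AML blasts fell into Tet2+/+ (n = 2) and Tet2-/- (n = 3), as their titles say. Per the submitters' processing notes and the methods of the study, the authors trimmed reads with Trim Galore 0.4.3, aligned them to GRCm38 (mm10) with Bismark 0.19.1 and Bowtie2, removed duplicates and extracted calls. What the authors deposited are raw counts, for each CpG cytosine, of its methylated and its unmethylated calls. Positions of all 20383623 autosomal dyads matched GRCm38.

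Calls of both strands were added per dyad and summed over 1 kb tiles with at least 5 dyads. Tiles that reached 15 calls in each library were fitted with edgeR 4.0.16 (quasi-likelihood, trended dispersion, R 4.3.3), with both counts of a library as columns, a coefficient per library, and the difference in methylation between genotypes tested. P-values were adjusted by Benjamini-Hochberg over all 1231586 tiles at 0.05. All low-methylated distal tiles entered the test. For class means, all 10 assignments of libraries to genotypes gave an exact permutation p. The nearest gene is that of the nearest protein-coding TSS in GENCODE vM21.

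The tiles and the gene lists were chosen with earlier results of these data known. Named tiles had at most 3 times the median calls and 1 tile per gene, except the tiles nearest Gata2, the runs and the tiles at the bounds. They were the 8 largest gains and 5 largest losses among called tiles whose groups do not overlap, 1 tile per list (the largest called difference, otherwise most calls), tiles within 150 kb of the Gata2 TSS, the 3 tiles with most calls not called (1 of them is not reported here), the 3 longest runs and the tiles at the bounds. Other tiles named by gene were chosen after their values were seen.

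On simulated data with a change of 45 points in 200 of 100000 tiles at the real depths, the edgeR test recovered 142, with 5 false calls, without a shift shared by a library. Alternatives were other call minimums, level bands and distances, other tests (limma 3.58.1), thinning, and each library left out. The labels give sample numbers, and the study describes its samples as taken from separate mice. The exact permutation p uses the values of these libraries. The edgeR p of a tile rests mostly on dispersion shared over all tiles, with 60.4 prior degrees of freedom. The tile's own spread between mice counts for less. Python 3.11.15, numpy 2.4.6 and matplotlib 3.10.9 were used. Lists from the RNA data of the study were not used here.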

Additional observations from a re-analysis of the deposited data

How the results depend on the processing

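The 9.93-point gain stayed positive under every alternative, between 7.13 and 12 points with each library left out and between 7 and 11.3 otherwise. The gain beyond the flanks was between 1.38 and 2.59 points over the 6 alternatives run for it, which did not include level bands. Counts of calls did not hold. With each library left out, 195 to 2290 tiles were called higher and 2 to 19 lower, where leaving out a Tet2+/+ library assumes that the other varies like Tet2-/-. The edgeR likelihood ratio test called 3768 higher (5.32%, against 3.35% of all tiles) and 28 lower, and limma with centring on the median tile 302 (0.427%, against 0.206%) and 24. After thinning, edgeR called 0 and 0 (9833 at an unadjusted p under 0.05) and so did limma, added after the data were seen. The prior degrees of freedom of edgeR fell from 60.4 to 7 with thinning. The band from 10% to under 30% held 410 and 1 calls. Of its tiles, 1.78% at 10% to under 20% and 2.98% at 20% to under 30% were called higher, against 1.85% of all tiles. Of tiles over 10 kb from a TSS 1379 were called higher, and their share is not given. Both sets hold fewer tiles, so their lower counts are not lost calls. For the other alternatives the cause of the change in counts was not tested.

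Comparisons with tiles of like gain turned in sign. Against CpG-poor distal tiles at 50% to under 80% the difference was -0.961 to 1.4 points with each library left out, -2.71 in the band from 10% to under 30% and -0.0142 from pooled calls. Against tiles near a TSS it was -1.32 to 0.394 with each library left out and 0.405 with at least 30 calls. Against CpG-dense tiles it was -2.55 to 5.05 with each library left out and -1.02 in that band, and against all tiles -0.412 in that band. Adjusted p of the Gata2 tiles were 0.758 to 0.993 (88162001) and 0.959 to 1 (88166001) with each library left out (edgeR), with the opposite sign for the first without library 23 and for the second without library 5. They were 0.823 and 0.714 with centring, and 0.991 for the second in limma, again with the opposite sign. Over all named tiles and alternatives, 242 other values kept direction and side of the threshold and 45 lost the call. At a median of 32 to 52 calls per tile and library, the smallest change called was 13.2 points at 10% to under 20%, and 22.7, 28.3 and 32.3 points in the higher bands (edgeR).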
